A study of Mus musculus with 36 samples.

Results

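Inflammatory CC chemokines, small secreted proteins that attract leukocytes, were followed at the messenger RNA level in mouse lung after graphene oxide sheets had been instilled through the nose. The set was chosen by gene symbol and holds 10 genes (Ccl2, Ccl3, Ccl4, Ccl6, Ccl7, Ccl9, Ccl12, Ccl17, Ccl20 and Ccl22) of the 46078 in the count table, each found by 1 Ensembl identifier. All 10 passed the filter on low counts. The study used female wild type C57BL/6 mice, a common inbred strain, aged 9, 10 or 13 weeks at collection on days 1, 7 and 28. Control groups, called D, received the 5% dextrose carrier alone, and exposed groups received 50 μg of US, S or L sheets, the study's ultrasmall, small and large lateral sizes, in that same carrier. Each of the 12 groups holds 3 libraries, 36 in all, made from polyadenylated RNA of pieces of lung lobe from which the large airways had been dissected. Whether the 3 libraries of a group come from 3 mice is not among the labels used here, and p-values therefore measure a spread that may in part be technical.

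CC chemokines bind G protein-coupled receptors on leukocytes and guide the cells from blood into tissue along a gradient of the chemokine. In the lung, alveolar macrophages that meet particles, airway and alveolar epithelium and dendritic cells are known sources. Ccl2, Ccl7 and Ccl12 act mainly through Ccr2 and draw monocytes out of marrow and blood. Ccl3 acts through Ccr1, and Ccl4 is a close relative of it. Ccl6 and Ccl9 are rodent chemokines of myeloid cells that bind Ccr1. Ccl17 and Ccl22, typical of dendritic cells, bind Ccr4 on T cells, and Ccl20, made largely by epithelium, binds Ccr6 on T cells, B cells and dendritic cells.

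The genes lie in 3 places of the mouse genome (GRCm38). On chromosome 11, Ccl2 (chr11:82035571-82037453), Ccl7 (chr11:82045712-82047525) and Ccl12 (chr11:82101845-82103400) are consecutive in the set, with gaps of 8.3 and 54.3 kb. A second block 1469.5 kb farther on holds Ccl9 (chr11:83572919-83578636), Ccl6 (chr11:83587882-83593087), Ccl3 (chr11:83647844-83649355) and Ccl4 (chr11:83662584-83664683). Ccl22 (chr8:94745590-94751699) and Ccl17 (chr8:94810453-94812035) stand 58.8 kb apart on chromosome 8, and Ccl20 (chr1:83116766-83119167) stands alone on chromosome 1.

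The sequences upstream of Ccl20, Ccl3 and Ccl6 are shown because these 3 genes rose together at day 7 after S sheets, as described with the values. Each run is the 250 bases before the RefSeq start site (GRCm38.p6), 5′ to 3′ on the gene's strand, at chr1:83116516-83116765, chr11:83649379-83649628 and chr11:83593088-83593337. Capitals mark a match to the consensus of NF-kB, a transcription factor that many inflammatory signals activate.
Ccl20: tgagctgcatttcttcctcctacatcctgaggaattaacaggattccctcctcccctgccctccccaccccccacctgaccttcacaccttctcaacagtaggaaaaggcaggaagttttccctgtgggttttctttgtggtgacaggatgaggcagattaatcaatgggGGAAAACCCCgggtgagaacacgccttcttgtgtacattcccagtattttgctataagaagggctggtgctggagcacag
Ccl3: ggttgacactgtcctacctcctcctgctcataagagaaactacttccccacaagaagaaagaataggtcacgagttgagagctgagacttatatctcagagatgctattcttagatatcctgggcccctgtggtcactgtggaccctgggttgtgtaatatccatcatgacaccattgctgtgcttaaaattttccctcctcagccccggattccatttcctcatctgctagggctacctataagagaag
Ccl6: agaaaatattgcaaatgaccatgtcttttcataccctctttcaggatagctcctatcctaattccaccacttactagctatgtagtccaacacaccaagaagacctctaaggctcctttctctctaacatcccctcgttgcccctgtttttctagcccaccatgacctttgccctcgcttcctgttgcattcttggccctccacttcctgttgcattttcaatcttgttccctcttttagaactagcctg

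Upstream sequence was found for 7 of the 10 genes. The NF-kB consensus, searched on both strands, matched 2 of the 7. In Ccl20 the match GGAAAACCCC covers bases 80 to 71 before the start, and in Ccl9 the match GGAAAGCCCC covers bases 35 to 26. Of 32851 RefSeq windows of the same length, 3.9% hold a match. The AP-1 motif TGANTCA, also searched on both strands, matched 1 of the 7, with TGAATCA at bases 53 to 47 before the start of Ccl9, and 6.75% of all windows hold it. A match describes letters in this window only, and the binding of a factor was not measured.

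Sequencing depth was 16154696 to 23808264 total counts in 35 libraries, and the deepest, S day 7 replicate 2, held 80566751. Levels are given as CPM, counts scaled to the library total, except between genes, where the deposited TPM values are used because TPM also scales for transcript length. A level of 1 CPM rested on 16.2 to 23.8 counts in the 35 libraries, so Ccl2, Ccl7, Ccl12 and Ccl20 were low in control lungs and measured on few reads. At day 1, 1 library of each exposed group stood apart. US replicate 1 had the highest level of 6 of the 10 chemokines over all 36 libraries, the highest sum of 12 neutrophil markers in its group (902 CPM, against 344 and 396 CPM in the other 2) and the lowest sum of 12 T, NK and B cell markers (72.3 CPM, against 240 and 198 CPM). S replicate 1 had low chemokine levels where the other 2 S libraries were high, and 98.6 CPM of Dbp, a gene driven by the daily clock, against 24.2 and 16.4 CPM. L replicate 3 differed from L replicates 1 and 2 by a chi-square per degree of freedom of 52.1 and 62.4, against 12.1 between those 2. Its 12 clock genes summed to 1434 CPM, against 1081 and 1021 CPM, and its Ccl20 rested on 2 reads. Without L replicate 3, edgeR called 0 of the 10 after L sheets at day 1 (0.00592% of all genes). The alveolar epithelial markers that define lung tissue, 8 genes, were all present in every group.

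In the 9 control libraries Ccl6 was by far the most abundant of the set, with a median of 293 TPM and a range of 231 to 328 TPM. Ccl6 made up 64.9% to 89.6% of the summed TPM of the 10 genes in every library, exposed ones included. Ccl17 followed with a median of 31.7 TPM, then Ccl22 with 14.5 TPM and Ccl9 with 13.3 TPM, whose ranges overlapped. Ccl4 had a median of 8.34 TPM, Ccl3 of 4.99 TPM and Ccl12 of 4.97 TPM. The lowest 3 were Ccl2 at 2.41 TPM, Ccl7 at 1.99 TPM and Ccl20 at 1.34 TPM. Ccl20 also varied most among control libraries, 13.1-fold in CPM from lowest to highest, whereas Ccl6 varied 1.297-fold.

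**Figure D1:**
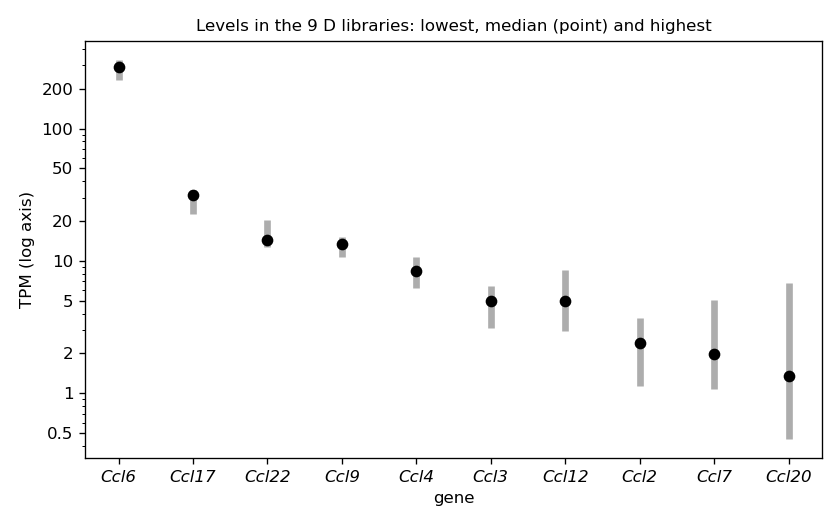
Transcript levels of the 10 chemokines in the 9 control libraries, as TPM on a log axis, with the median as a point and a bar from the lowest to the highest library. Ccl6 (median 293 TPM) stands above all others, and the range of Ccl20 is the widest.

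Exposed groups were set against the D group of their day in 1 edgeR quasi-likelihood fit over all 36 libraries, with Benjamini-Hochberg adjustment over 16903 genes and a threshold of 0.05, and the 3 sizes of a day share their D libraries. Of 90 tests (10 genes in 9 comparisons), 4 passed, all of them higher than D, and 32 had an unadjusted p under 0.05. Over all 16903 genes the number with an unadjusted p under 0.05 differed between comparisons. At day 1 it was 2724, 3555 and 835 after US, S and L sheets, and at day 7 it was 4352, 1577 and 824. At day 28 it was 1018 after US sheets and is not given for S and L sheets. The calls were Ccl3, Ccl6 and Ccl20 at day 7 after S sheets, where 0.408% of all genes were called higher, and Ccl3 at day 28 after L sheets, where 1.25% were. The count over all genes at day 7 after S sheets, 76 in either direction, dropped to 0 when D replicate 1 or D replicate 2 was left out, to 11 when S replicate 2 was and to 8 when S replicate 3 was. At day 7 after S sheets 4 of the 10 lay wholly above D in CPM, Ccl7 beside the 3 called genes, and Ccl17 lay wholly below it, as did 11.1% and 4.57% of all genes. In TPM Ccl17 overlapped D. Over the 9 comparisons Ccl3 and Ccl6 had a positive fitted change in all 9, Ccl9 in 8 and Ccl4 and Ccl7 in 7. All members but Ccl3 and Ccl6 had both signs. When the 12 groups were ordered by mean level, the libraries of neighbouring groups overlapped in all but 1 of 110 neighbouring pairs. Neighbours in this order are the groups closest in mean, so their overlap does not describe groups farther apart.

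**Figure D2:**
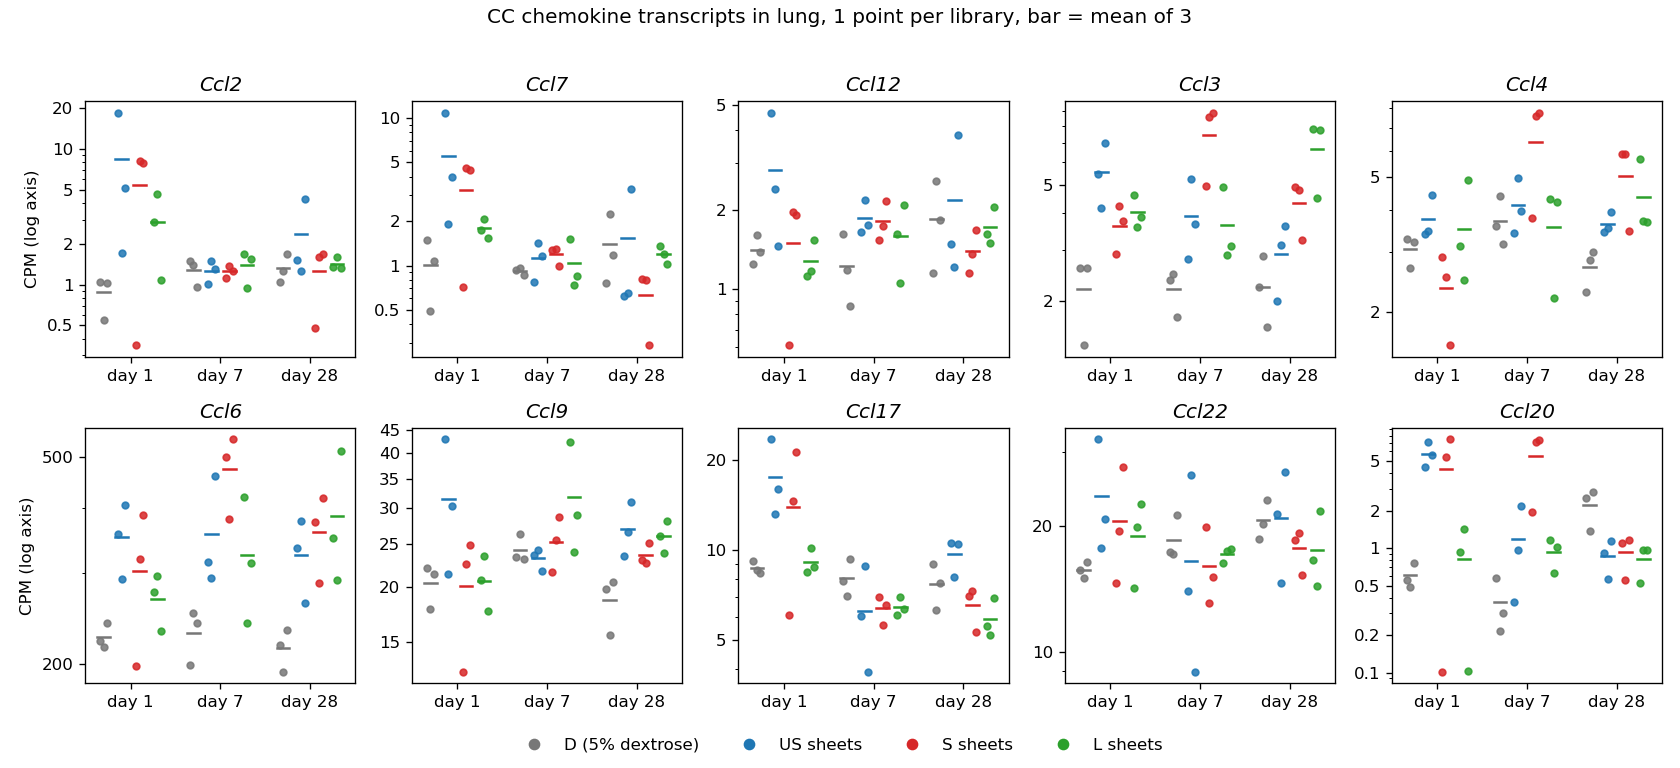
CPM of each chemokine on a log axis, with 1 point per library and a bar at the mean of 3, by day and by material. At day 1 Ccl2, Ccl7 and Ccl20 lie above D in the US libraries and in 2 of 3 S libraries. Ccl2 and Ccl7 are lowest among the US libraries in replicate 2, at 1.72 and 1.92 CPM. At day 7 Ccl3 and Ccl20 are high after S sheets.

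**Figure D3:**
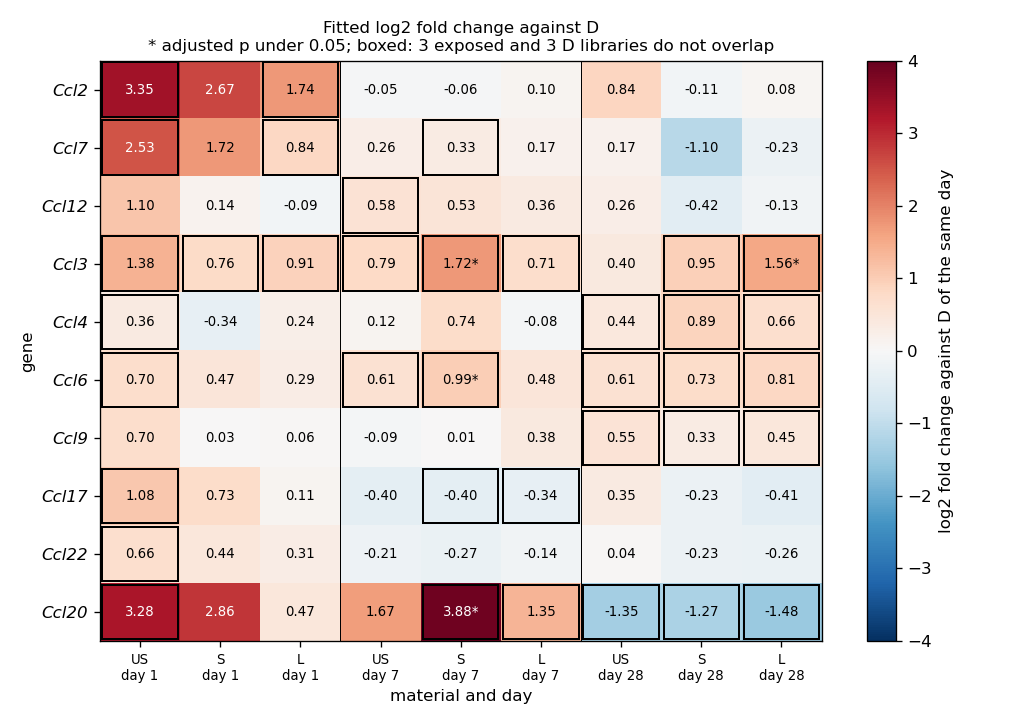
Fitted log2 fold change of each chemokine (rows) against D of the same day, for each size and day (columns). An asterisk marks an adjusted p under 0.05, as for the 4 calls, and a box marks comparisons in which the 3 exposed and 3 D libraries do not overlap in CPM.

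Day 1 after US sheets held the broadest pattern. All 10 genes had a positive fitted change, with a median log2 change of 1.09 against 0.01 over all genes tested, and 8 of the 10 had all 3 US libraries above all 3 D libraries, as did 5.72% of all genes. These ranges are in CPM, and in TPM Ccl4 overlapped D. None of the 10 passed the test in edgeR, and 9 had an unadjusted p under 0.05, as did 2724 of all 16903 genes. DESeq2 called 5 and limma on log2(TPM + 1) called 0. DESeq2 called 2.16% of the genes it tested, limma 0.0064% and edgeR 0.0887%. The comparison turned on single libraries: edgeR called 6 of the 10 without US replicate 2 and 2 without US replicate 3, where 5.27% and 0.728% of all genes were called, and 0 without US replicate 1 (0.0177% of all genes).

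Ccl2, the main attractant of inflammatory monocytes, stood at 18.5, 1.72 and 5.13 CPM after US sheets at day 1, against 1.05, 0.553 and 1.02 CPM in D. The 3 US libraries all exceeded D but spread widely among themselves, with replicate 1 the highest. The fitted log2 change was 3.35 ± 0.76 (SE), with an adjusted p of 0.05812 in edgeR. After S sheets the level was 0.357, 8.13 and 7.92 CPM, so replicate 1 lay below every D library and the other 2 far above them. The fitted change was 2.67 ± 0.76 (adjusted p 0.1442), and without replicate 1 it was 3.23 with an adjusted p of 0.01369. After L sheets the libraries held 2.90, 4.67 and 1.08 CPM, all above D, with a log2 change of 1.74 ± 0.78 (edgeR adjusted p 0.9682). In TPM L replicate 3, at 2.32, lay below D replicate 1, at 2.41. At day 7 every exposed group overlapped D, which stood at 1.50, 1.40 and 0.961 CPM. Day 28 also gave overlapping groups, with 1 high library, US replicate 3, at 4.28 CPM.

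Ccl7, a neighbour of Ccl2 that also attracts monocytes, also had its largest fitted change after US sheets at day 1. Its level at day 1 was 10.8, 1.92 and 3.97 CPM after US sheets, against 1.49, 0.491 and 1.07 CPM in D, a log2 change of 2.53 ± 0.62 (edgeR adjusted p 0.05923). After S sheets it was 0.713, 4.61 and 4.47 CPM, with a change of 1.72 ± 0.63 (adjusted p 0.1677) that became 2.20 with an adjusted p of 0.04173 once replicate 1 was left out. After L sheets all 3 libraries, at 1.73, 2.08 and 1.54 CPM, lay just above D (log2 change 0.84 ± 0.65, edgeR adjusted p 0.9777). In TPM L replicate 3, at 3.32, lay just below D replicate 1, at 3.33. Over the 36 libraries Ccl2 and Ccl7 had a Pearson r of 0.84 in log2 CPM, the highest between any 2 of the set, a description of libraries that share groups and depth.

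Ccl12, the third ligand of Ccr2 in this set, was never called. At day 1 the US libraries stood at 4.65, 2.39 and 1.46 CPM and overlapped D at 1.24, 1.60 and 1.38 CPM, with a log2 change of 1.10 ± 0.42 (edgeR adjusted p 0.1949). Across the other 8 comparisons its fitted log2 change lay between -0.42 and 0.58. It lay wholly above D once, after US sheets at day 7, at 1.65, 2.17 and 1.75 CPM against 1.62, 1.18 and 0.860 CPM.

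Ccl3, which attracts and activates monocytes and neutrophils, was the member that lay above D most often. All 3 exposed libraries exceeded all 3 D libraries in 8 of its 9 comparisons, all but US sheets at day 28. D was steady, at 1.41 to 2.60 CPM on day 1, 1.77 to 2.47 CPM on day 7 and 1.63 to 2.85 CPM on day 28. After S sheets at day 7 Ccl3 stood at 4.98, 8.56 and 8.84 CPM, against 2.37, 2.47 and 1.77 CPM in D. Ccl3 rose 3.29-fold there (log2 1.72 ± 0.31, edgeR adjusted p 0.01026). The call was lost without D replicate 1 (adjusted p 0.09273), D replicate 2 (0.06393), S replicate 2 (0.06123) or S replicate 3 (0.06082), while the fold change stayed between 1.57 and 1.94 on the log2 scale over all 12 alternatives.

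After L sheets at day 28 Ccl3 stood at 7.77, 4.53 and 7.73 CPM, against 2.24, 2.85 and 1.63 CPM in D, with no overlap. It rose 2.94-fold (log2 1.56 ± 0.32, edgeR adjusted p 0.005301), and the call was lost in 1 of 12 alternatives, without D replicate 3 (adjusted p 0.05124). The US libraries at day 1 stood at 5.48, 4.16 and 6.99 CPM against 2.60, 1.41 and 2.60 CPM in D, a log2 change of 1.38 ± 0.32 that did not pass (adjusted p 0.05812). S sheets at day 28 gave 4.94, 4.82 and 3.24 CPM and a change of 0.95 ± 0.32 (adjusted p 0.2552). The remaining 5 comparisons gave log2 changes from 0.40 to 0.91, none called.

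Ccl4, the neighbour of Ccl3 on chromosome 11, was not called against D. Its highest levels were in S day 7, at 3.80, 7.58 and 7.76 CPM, where replicate 1 lay within D at 3.59, 4.41 and 3.19 CPM (log2 change 0.74 ± 0.28, edgeR adjusted p 0.3247). At day 28 the libraries of all 3 sizes lay above D in CPM, with D at 2.30, 2.85 and 3.01 CPM. In TPM S replicate 3, at 8.535, lay below D replicate 3, at 8.89. The day 28 levels were 3.44, 3.56 and 3.95 CPM after US sheets, 5.85, 5.87 and 3.47 CPM after S sheets, and 5.68, 3.73 and 3.68 CPM after L sheets. The fitted log2 changes were 0.44 ± 0.30, 0.89 ± 0.29 and 0.66 ± 0.30, with adjusted p from 0.2479 to 0.9114. The US libraries of day 1 also lay above D in CPM, by a log2 change of 0.36 ± 0.30. In TPM US replicate 2, at 8.89, lay below D replicate 3, at 8.97.

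Ccl6, a chemokine that macrophages of the mouse lung express at rest, was steady in D at 194 to 251 CPM over all 9 libraries. After S sheets at day 7 it stood at 501, 381 and 542 CPM, all above D at 199, 251 and 240 CPM. Ccl6 rose 1.99-fold (log2 0.99 ± 0.23, edgeR adjusted p 0.04718). That adjusted p was near the threshold, and the call was lost when any 1 of the 6 libraries was left out, with adjusted p from 0.07408 (without S replicate 2) to 0.2646 (without S replicate 3). Without S replicate 1 it was 0.09576, and without D replicates 1, 2 and 3 it was 0.2432, 0.1563 and 0.08824. After L sheets at day 28 the libraries held 350, 291 and 514 CPM against 218, 194 and 233 CPM in D, a log2 change of 0.81 ± 0.23 (adjusted p 0.06219) that DESeq2 called (adjusted p 0.02081). Libraries also lay wholly above D for US sheets on days 1, 7 and 28 and for S sheets on day 28, with log2 changes of 0.61 to 0.73 and no call.

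Ccl9, adjacent to Ccl6, had no call with all libraries in the edgeR fit. The highest library of the series was US day 1 replicate 1, at 42.9 CPM beside 21.3 and 30.3 CPM in its group and 22.0, 17.8 and 21.3 CPM in D (log2 change 0.70 ± 0.22, edgeR adjusted p 0.1244). L day 7 replicate 1 was almost as high, at 42.3 CPM. At day 28 all 3 sizes lay above D, which stood at 19.8, 15.6 and 20.5 CPM, with log2 changes of 0.55 ± 0.22 after US sheets, 0.33 ± 0.22 after S sheets and 0.45 ± 0.22 after L sheets.

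Ccl17 and Ccl22, ligands of Ccr4, had their largest fitted changes after US sheets at day 1, and edgeR called neither. Ccl17 stood at 23.4, 13.2 and 16.0 CPM after US sheets at day 1, against 9.22, 8.60 and 8.42 CPM in D, a log2 change of 1.08 ± 0.28 (edgeR adjusted p 0.07077) that DESeq2 called (adjusted p 0.01722). S libraries held 6.06, 14.6 and 21.3 CPM, and without the low replicate 1 the log2 change of Ccl17 went from 0.73 to 1.09 (adjusted p 0.01929). L libraries, at 8.46, 10.2 and 8.76 CPM, overlapped D. At day 7 Ccl17 had fitted log2 changes of -0.40 after US and S sheets and -0.34 after L sheets, with edgeR adjusted p from 0.3808 to 0.9999. The S and L libraries lay below every D library in CPM. In TPM they overlapped D, with S replicate 1 at 25.7 and L replicate 3 at 23.8 above D replicate 2 at 22.6.

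Ccl22 stood at 32.1, 17.7 and 20.7 CPM after US sheets at day 1, against 15.7, 15.0 and 16.4 CPM in D (log2 change 0.66 ± 0.28, edgeR adjusted p 0.244). In each of its other 8 comparisons it overlapped D, with log2 changes between -0.27 and 0.44. Ccl17 and Ccl22 had a Pearson r of 0.743 over the 36 libraries and 0.805 in deviations from the group means, both given as descriptions. The summed level of 11 dendritic cell markers at day 1 was 124.4 to 160 CPM after US sheets and 152 to 166 CPM in D, with none called and none at 0 throughout a group.

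Ccl20, the ligand of Ccr6, showed the largest fold change of the set. After S sheets at day 7 it stood at 1.95, 7.09 and 7.39 CPM, against 0.579, 0.215 and 0.304 CPM in D, that is 38, 571 and 164 reads against 10, 4 and 6. Ccl20 rose 14.7-fold (log2 3.88 ± 0.81, edgeR adjusted p 0.02482). The call was lost in 6 of 12 alternatives. These were limma on log2(TPM + 1) (adjusted p 0.0546), D replicates 1, 2 and 3 left out in turn (0.1203, 0.1599 and 0.07332), and S replicates 2 and 3 left out in turn (0.1035 and 0.1233). The fitted log2 change was 2.69 to 4.35 over these alternatives. The US and L libraries of day 7 held 0.366, 0.973 and 2.19 CPM and 1.17, 0.630 and 1.02 CPM, where US replicate 3 lay above S replicate 1, with log2 changes of 1.67 ± 0.90 and 1.35 ± 0.93 that did not pass.

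At day 1 Ccl20 stood at 4.51, 7.12 and 5.58 CPM after US sheets, against 0.557, 0.491 and 0.765 CPM in D. The US libraries lay close together here, and the log2 change was 3.28 ± 0.76 (edgeR adjusted p 0.05812, DESeq2 adjusted p 0.00983). S libraries split, at 0.102, 5.42 and 7.49 CPM, where replicate 1 rested on 2 reads. Without that library Ccl20 was called, with a log2 change of 3.44 (adjusted p 0.00589), as were Ccl2, Ccl7 and Ccl17, 4 of the 10 in all against 2.99% of all genes. With all 3 S libraries edgeR called 0 of 10 at day 1 (0.0473% of all genes). An unadjusted p under 0.05 was found for 5 of the 10 and for 3555 of all 16903 genes. DESeq2 and limma also called 0 of the 10, and they called 1.78% and 0.0128% of the genes they tested. After L sheets Ccl20 overlapped D, at 0.935, 1.42 and 0.102 CPM.

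At day 28 the sign of Ccl20 was the opposite. D stood at 2.52, 1.37 and 2.82 CPM, above the D libraries of days 1 and 7, and all exposed libraries lay below it. These held 0.907, 0.564 and 1.13 CPM after US sheets, 1.10, 0.552 and 1.16 CPM after S sheets, and 0.521, 0.975 and 0.967 CPM after L sheets. The fitted log2 changes were -1.35 ± 0.73, -1.27 ± 0.74 and -1.48 ± 0.76, with edgeR adjusted p of 0.8387, 0.5918 and 0.3203. The 3 comparisons share the same D libraries, and D groups were not tested against each other. In the D libraries of day 28 Dbp stood at 3.88, 3.02 and 3.61 CPM, against 8.90 to 34.3 CPM in the D libraries of days 1 and 7, and its part in the Ccl20 values was not tested.

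All 3 exposed libraries lay above all 3 D libraries for 1 of the 10 at day 1 after S sheets (13.4% of all genes) and for 3 after L sheets (3.23%), with none below. Of those 3, Ccl2 and Ccl7 were apart in CPM but overlapped D in TPM. At day 7 that held for 3 after US sheets (9.79%) and for 2 after L sheets (4.99%), where 1 lay wholly below D (2.55%). At day 28 it held for 3 after US sheets (6.27%), 4 after S sheets (12%) and 4 after L sheets (16.5%), and 1, Ccl20, lay wholly below D after each size, as did 9.03%, 10.7% and 14.4% of all genes. All these ranges are in CPM. In TPM Ccl4 also overlapped D at day 1 after US sheets and at day 28 after S sheets, as did Ccl17 at day 7 after S and L sheets.

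The remaining comparisons with D gave no call in edgeR. At day 1 after L sheets (0.0237% of all genes called), 2 of the 10 had an unadjusted p under 0.05. Over all 16903 genes, 835 did. The number was also 2 for US sheets at day 7 (2.09% called), for L sheets at day 7 (0.154%) and for US sheets at day 28 (0.0237%). Over all genes it was 4352, 824 and 1018 in that order. For S sheets at day 28 (0.237% called) it was 3 of the 10. The number over all genes is not given there, so the 3 are not read as a result. The shares called rest on adjusted p and cannot be set against the unadjusted numbers. DESeq2 and limma called 0 of 10 in each of these 5 comparisons. Of the genes it tested, DESeq2 called 0.185%, 8.26%, 0.296%, 0.182% and 0.949%, in the order given. The shares for limma were 0.0192%, 0.826%, 0.128%, 0.0128% and 0.141%.

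The sizes were also compared with each other within a day, in 9 comparisons. None of 90 tests passed in edgeR. The share of all genes called at day 1 was 0.0177% between S and US sheets and 0% between L and either of the others. At day 7 it was 0.142% between S and US, 0.00592% between L and US and 0.154% between L and S, and at day 28 it was 0%, 0.515% and 0.0651% in that order. Of the 90, 23 had an unadjusted p under 0.05. The share over all genes is not given, so this number is not read as a result about the members. DESeq2 called 1 and limma 0. The call by DESeq2, in a comparison where it called 1.11% of the genes it tested, was Ccl3, higher in L than in US libraries at day 28 (edgeR log2 difference 1.15 ± 0.30, 95% interval 0.53 to 1.77, adjusted p 0.0808), where the 3 L libraries lay above the 3 US libraries. Ccl20 differed at day 1 between L and US sheets by -2.81 ± 0.72 (95% interval -4.27 to -1.35, adjusted p 0.3386) and at day 7 between L and S sheets by -2.53 ± 0.70 (-3.96 to -1.10, adjusted p 0.2601), both with no overlap. Ccl3 differed at day 7 between L and S sheets by -1.01 ± 0.30 (-1.61 to -0.40, adjusted p 0.3287). These intervals do not span 0 before adjustment, so the test does not show that the sizes act alike.

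The change against D was compared between days for each size, as an interaction in the same fit. None of 60 tests passed in edgeR, DESeq2 called 4 and limma 0. In edgeR 18 of the 60 had an unadjusted p under 0.05. The share over all genes is not given, so this number is not read as a result about the members. Of all genes, edgeR called 0.136% for US sheets and 0% for S and for L sheets between days 7 and 1, and 0.0473%, 0.195% and 0.243% between days 28 and 1. The 4 calls by DESeq2 were Ccl20 for US and for S sheets and Ccl7 for S sheets between days 28 and 1, and Ccl17 for US sheets between days 7 and 1. DESeq2 called 0.455% of the genes it tested for US sheets and 2.7% for S sheets between days 28 and 1, and 1.33% for US sheets between days 7 and 1. For Ccl20 the log2 change against D at day 28 minus that at day 1 was -4.62 ± 1.05 for US sheets (edgeR adjusted p 0.09951) and -4.13 ± 1.06 for S sheets (adjusted p 0.08986). These differences include the higher Ccl20 level of the day 28 D libraries.

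Few genes of the pathway around the chemokines were called. Of 10 receptors and scavengers none was called against D in any of the 9 comparisons, and of 9 tested of 11 other CC chemokines none was called either. Ccr1, the receptor of Ccl3, Ccl6 and Ccl9, stood at 64.4, 19.0 and 29.2 CPM after US sheets at day 1, against 15.0, 16.0 and 15.7 CPM in D (log2 change 1.36 ± 0.31, adjusted p 0.05812). Ccr2, the receptor of Ccl2, gave 0.06 ± 0.20 and Ccr6, the receptor of Ccl20, gave -0.61 ± 0.35 in that comparison. Of 10 tested of 12 cytokines that can induce CC chemokines, 1 was called. Tnf, a macrophage cytokine that activates NF-kB, rose at day 7 after S sheets, the comparison with the 3 chemokine calls. It stood at 1.28, 2.74 and 2.34 CPM against 0.116, 0.592 and 0.354 CPM in D, with a log2 change of 2.54 ± 0.46 (edgeR adjusted p 0.01026). The D levels rested on few reads, as 1 CPM was 17.3 counts in D replicate 1. The call was lost without D replicate 1 or D replicate 2, where 0 genes were called. The part of Tnf in the chemokine values was not tested. None of 12 NF-kB subunits and feedback genes was called in any of the 9 comparisons. At day 1 after US sheets all 12 had a positive fitted change (median log2 0.32, 5 at an unadjusted p under 0.05). Of the 10 tested cytokines 7 were positive there (median 0.69, 8 at an unadjusted p under 0.05). The receptors had 6 of 10 positive (median 0.04, 1) and the other CC chemokines 3 of 9 (median -0.38, 2). Over all 16903 genes, 2724 had an unadjusted p under 0.05.

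Markers of the cells that make or follow these chemokines were read in the same libraries. In bulk tissue, fewer cells of a type and less RNA per cell cannot be told apart, and the part of these cells in the chemokine values was not tested. At day 1 after US sheets, 11 of 12 neutrophil markers had a positive fitted change and 1, Il1r2, was called, at 98.0, 3.22 and 6.94 CPM against 1.30 to 2.55 CPM in D. The summed neutrophil markers ran from 344 to 902 CPM against 270 to 337 CPM in D, with no marker at 0 throughout either group. In that comparison 0 of 12 T, NK and B cell markers had a positive fitted change (median log2 -0.48, 3 at an unadjusted p under 0.05, none called). Of the 11 dendritic cell markers 2 were positive (median -0.28, 4 at an unadjusted p under 0.05, none called). Over all 16903 genes, 2724 had an unadjusted p under 0.05 there. At day 7 after S sheets 1 of 12 neutrophil markers (Cd177, log2 change 2.34 ± 0.50) and 1 of 12 monocyte and recruited macrophage markers (Ms4a7, 1.39 ± 0.33) were called. Both calls were lost without D replicate 1 or D replicate 2, where 0 genes were called. The summed monocyte markers at day 7 after S sheets ran from 573 to 638 CPM against 508 to 557 CPM in D. At day 28 after L sheets Ms4a7 (1.45 ± 0.33) and the alveolar macrophage marker Itgax (0.99 ± 0.18) were called, beside the rise of Ccl3, and the summed monocyte markers ran from 616 to 752 CPM against 511 to 677 CPM. The summed alveolar macrophage markers (11 genes) overlapped D in both comparisons, at 1569 to 2338 CPM against 1351 to 1948 CPM at day 7 and at 1419 to 2041 CPM against 1573 to 1641 CPM at day 28. None of the 11 was called at day 7 after S sheets, although 9 had an unadjusted p under 0.05, as did 1577 of all 16903 genes. Of the 11, 6 had a positive and 5 a negative fitted change. Trdc, a marker of gamma delta T cells, some of which carry Ccr6, the receptor of Ccl20, fell at day 28 after L sheets (log2 change -1.57 ± 0.43). No dendritic cell, airway, alveolar epithelial, fat or cardiomyocyte marker was called in these 3 comparisons. The summed fat markers at day 7 were nonetheless 3.54 to 22.4 CPM after S sheets against 16.2 to 58.4 CPM in D.

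**Figure D4:**
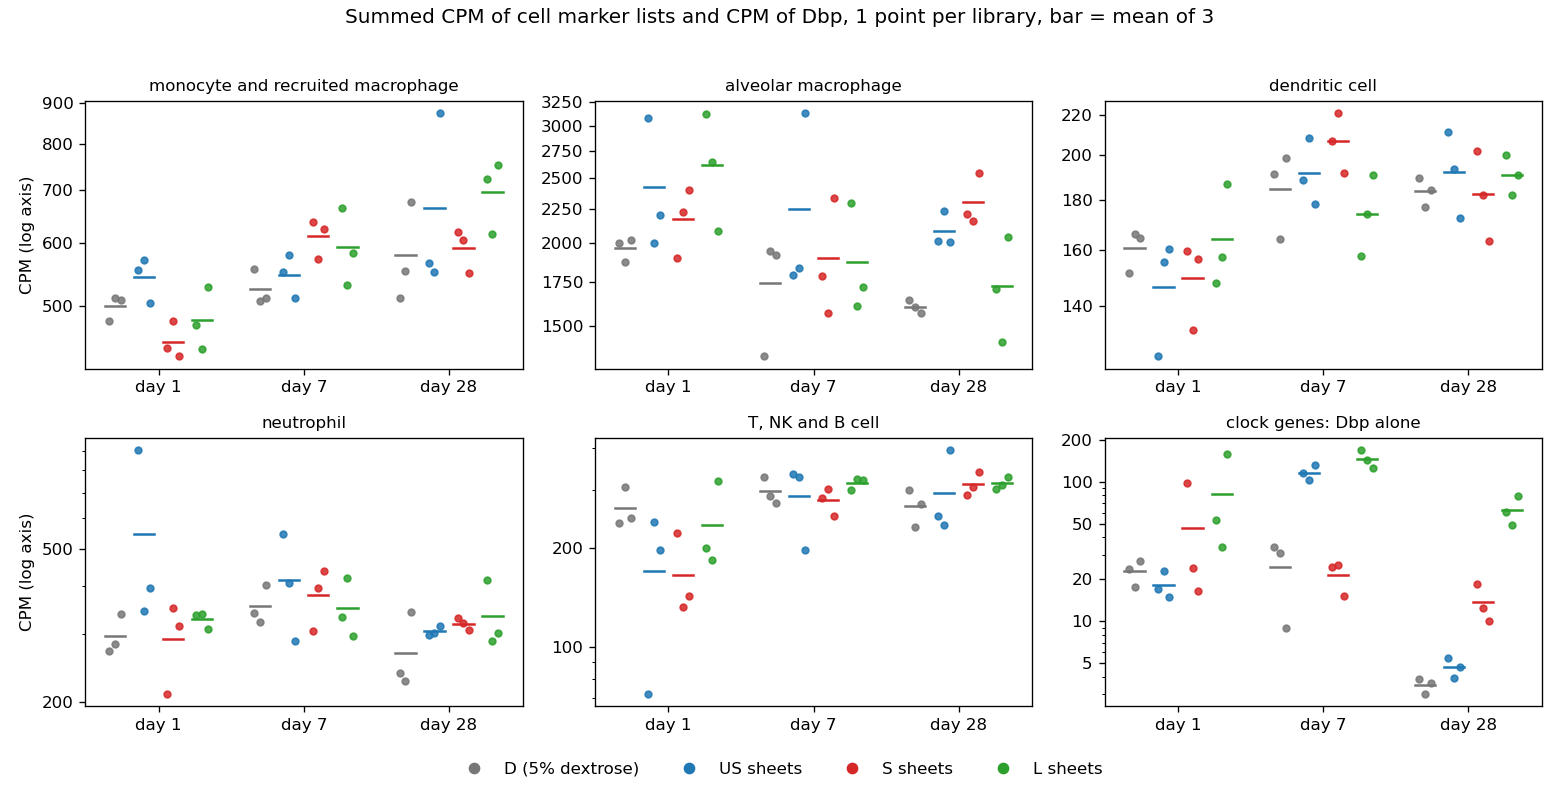
Summed CPM of marker lists for 5 kinds of immune cell, and CPM of the clock gene Dbp alone, on log axes, with 1 point per library and a bar at the mean of 3. The neutrophil sum of US day 1 replicate 1 stands at 902 CPM, and Dbp at day 28 is lower in D than in the S and L libraries.

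Clock genes differed in some of the same comparisons. At day 28 after L sheets 9 of 12 clock genes were called, Dbp among them at 60.4, 48.9 and 78.5 CPM against 3.88, 3.02 and 3.61 CPM in D, and the hour of collection is not among the labels used here. At day 7 after S sheets none of 12 was called, with Dbp at 24.4, 25.2 and 15.1 CPM against 34.3, 30.8 and 8.90 CPM. At day 1 none was called after US sheets, and 3 were after S sheets: Npas2 lower, with Tef and Hlf higher. After L sheets at day 1, 1 was called lower. At day 7, 7 were called higher and 2 lower after US sheets, and 6 higher and 2 lower after L sheets. At day 28, 2 were called higher after S sheets and none after US sheets. The part of these differences in the chemokine values was not tested.

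The genes most like each chemokine over the 36 libraries were found by Pearson r of log2 CPM among 14718 genes with a mean of at least 1 CPM. Ccl20 came closest to Cxcl5, a neutrophil attractant of epithelium (r 0.913), then to Pigr (0.845) and Hpx (0.767). Ccl2 lay nearest to Timp1 (0.886), Tgfbi (0.872) and Ccr1 (0.859), and Ccl7 to Tgfbi (0.883), Timp1 (0.864) and Hsd11b2 (0.85). Ccl3 came nearest to the macrophage lysosomal gene Cd68 (0.776), and Ccl6 to B3gnt7 (0.854), Slc39a2 (0.848) and Cxcr1 (0.845). For Ccl9 the first gene was Wfdc17 (0.821), for Ccl4 H3f3b (0.771), for Ccl12 Ifi205 (0.665), for Ccl17 Immt (0.838) and for Ccl22 Gars (0.747). By rank (Spearman rho), the first gene gave 0.821 for Ccl20, 0.604 for Ccl2, 0.762 for Ccl7, 0.816 for Ccl3 and 0.852 for Ccl6. For Ccl9, Ccl4, Ccl12, Ccl17 and Ccl22 rho was 0.695, 0.787, 0.364, 0.67 and 0.724. In deviations from group means, r was 0.449 for Ccl3 and 0.657 to 0.917 for the first genes of the other members. These values describe libraries that share groups, depth and dissection, and genes are not independent replicates.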

How the data were processed

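RNA was measured in 36 lung libraries, and groups were read from the sample titles. Whole read counts for each Ensembl gene were deposited by the authors in 1 table. The submitters' processing notes list STAR 2.5.1b (aligner), featureCounts 1.5.1 (counter) and StringTie 1.3.3 (quantifier), with the builds GRCm38 and GRCh37. The sources used here do not give the annotation release, the strand setting or how reads matching several genes were treated, and reads shared by similar chemokine genes may be apportioned unevenly. The authors also deposited TPM per gene, used for levels between genes and as an alternative. FPKM and coverage (a read signal per base), which the authors deposited beside TPM, were left out.

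Counts were filtered with filterByExpr (16903 genes left), scaled by TMM and fitted in edgeR 4.0.16 (R 4.3.3) with a mean per group. Quasi-likelihood F tests were two-sided, and p-values were adjusted by Benjamini-Hochberg over all genes tested. CPM divides by the library total. In counts simulated for S sheets against D at day 7, 77% of 100 genes changed 2-fold and 98% of 100 changed 4-fold were called, among 16903 genes. The changed genes were drawn only from genes above a set expected count. The simulation held no library that departed as a whole from its group. Only this comparison, which includes the deepest library, was simulated. The rates therefore do not give the chance of a call for single members or in other comparisons. Alternatives were DESeq2 1.42.0, limma 3.58.1 on log2(TPM + 1) where a gene averaged 1 TPM or more, RLE scaling, no filter, a replicate block, the compared groups alone, and each library left out. Libraries of a group differed beyond sampling noise (chi-square per degree of freedom at least 6.53), so no pair was treated as 1 library, which does not show that they come from different mice. Replicate numbers in the titles did not pair libraries across groups. The members and the other gene lists were chosen with earlier results of these data known. Named genes are the 10 members, then at most 3 called genes a list and comparison, genes needed to state another cell type's level, and the 3 genes most like a member. Receptors and cytokines named with no call are there as partners of a member. One gene of the T, NK and B cell list is not reported here.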

Additional observations from a re-analysis of the deposited data

How the results depend on the processing

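Of the 4 calls, none changed direction in any of 12 alternatives. Ccl3 kept its call in 8 at day 7 after S sheets and in 11 at day 28 after L sheets, and Ccl6 and Ccl20 at day 7 in 6 each. RLE scaling and the replicate block each gave 4 calls among the 10 genes in the 9 comparisons with D, as in the reported fit. Same-numbered libraries of different groups deviated together weakly (r from -0.477 to 0.371, median 0.003, over 0.1 in 11 of 54 pairs, and 7 of 36 libraries correlated best with their own number), so the replicate block joins libraries that share only a number.

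At day 1 after US sheets, 0 of the 10 were called, against 5 with no filter, 1 with only the groups compared and 5 in DESeq2. These settings called 0.465%, 0.0118% and 2.16% of the genes they tested, against 0.0887% in the reported fit. Leaving out 1 library gave 0 to 6, with 6 without US replicate 2 (5.27% of all genes). At day 1 after S sheets leaving out 1 library gave 0 to 4, with 4 without S replicate 1 (2.99% of all genes). At day 7 after US sheets it gave 0 to 1, with 1 without US replicate 2, where 18.2% of all genes were called. At day 7 after S sheets it gave 0 to 2, from 3, with 2 without S replicate 1 (0.509% of all genes). At day 28 after L sheets, 1 was called, against 2 with no filter, 3 with only the groups compared, 2 in DESeq2 and 0 to 2 with 1 library left out. No filter, only the groups compared and DESeq2 called 0.937%, 4.51% and 3.33% of the genes they tested there, against 2.15% in the reported fit. Without L replicate 2, 2 of the 10 and 2.14% of all genes were called. Between L and US sheets at day 28, DESeq2 called 1 (187 over all genes) and leaving out 1 library gave 0 to 1 (29 to 140). For the change between days 7 and 1 after US sheets DESeq2 called 1 (211 over all genes). Between days 28 and 1, no filter, only the groups compared and DESeq2 called 1 each after US sheets (12, 5 and 71 over all genes). After S sheets they called 1, 2 and 2 (43, 2578 and 377), and leaving out 1 library gave 0 to 3 (3 to 334). The cause of these gains and losses was not tested.

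Counts over all genes moved more. Across the 6 alternatives that keep all libraries compared, they ran from 1 to 343 (15 as reported) at day 1 after US sheets, 2 to 1130 (8) after S and 1 to 27 (4) after L. At day 7 they ran from 10 to 1233 (353), up to 169 (76) and up to 50 (26), and at day 28 from 2 to 29 (4), 22 to 148 (40) and 148 to 763 (363). Leaving out 1 library gave 0 to 890, 0 to 506 and 0 to 4 at day 1, 18 to 3068, 0 to 86 and 12 to 26 at day 7, and 1 to 10, 12 to 33 and at most 362 at day 28, in the same order of sizes, so the shares of all genes called depend on single libraries. At day 7 after US sheets the high values were 3068 without US replicate 2 and 2280 without D replicate 3. Depth limits Ccl20, Ccl2 and Ccl7, which rested on as few as 2, 7 and 5 reads in a library. With 3 libraries a group, 1 library can decide a call.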
